A study of Mus musculus with 12 samples.

Results

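The genes examined were the 4 Notch receptors Notch1, Notch2, Notch3 and Notch4, the ligands Jag1, Jag2 and Dll4, the ligand-like gene Dner, and the target genes Hes1 and Hey1. They make 10 of the 40760 genes in the count table, and all 10 passed the filter on low counts, which kept 17418 genes for testing. Of these 10 genes, 9 were listed for their place in the pathway, with earlier results of these data known. Dner was chosen by its own counts, for its large fall in the bleomycin libraries labelled Pear1-/-, so its values in every comparison that uses a bleo library are given as a description with no test.

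The libraries were bulk RNA-seq of cells sorted from mouse lung for Cd140a, the product of Pdgfra and a marker of lung fibroblasts. There were 12 libraries, 3 in each of 4 groups: WT vehicle, WT bleo, Pear1-/- vehicle and Pear1-/- bleo, where bleo is bleomycin, a drug that injures the lung and is used to bring about fibrosis in mice. All were labelled as male, and the study used mice on a C57BL/6 background. Dose, time after bleo and age are not in the labels, and the number of mice behind a library is not given in the sources used here. The Pear1-/- allele is a knockout-first allele, in which a gene trap cassette sits in an intron of Pear1 in every cell, so that the transcript is trapped rather than its exons removed. Because no source says that the 3 libraries of a group came from separate animals, the p-values measure the spread between these libraries, which may be technical.

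The targeted gene went against the labels. Pear1, a transmembrane receptor first described in platelets and endothelial cells, had 576, 545 and 519 normalized counts in WT vehicle and 511, 501 and 547 in the vehicle libraries labelled Pear1-/-, and the log2 difference was -0.08 (SE 0.08, adjusted p = 0.49). In WT bleo it had 256, 239 and 266 normalized counts, and in the libraries labelled Pear1-/- bleo 355, 372 and 344, which was higher (log2 0.48, SE 0.08, adjusted p = 7.54e-05). The counts were summed over the whole gene, and reads from exons upstream of the trap are expected in both genotypes, so this sum is a limited check of the allele. The genotype of a library below is therefore its label. WT vehicle replicate 2 also stood apart. The chi-square of its counts against WT vehicle replicates 1 and 3, per degree of freedom, was 21.2 and 21.8, where counting noise alone gives 1 and the other pairs within a group gave between 1.35 and 4.82. Its value lay nearer to the mean of the vehicle libraries labelled Pear1-/- than to the mean of WT vehicle replicates 1 and 3 for 10 of the 10 genes. The share of all genes for which this held was not taken, so it is not read as particular to these genes. Some of the results that use WT vehicle are therefore also given without it, and the others include it. Total counts per library lay between 6702948 and 10447101, and 3 counts, taken as the limit that a count of 0 allows, correspond to between 2.58 and 3.64 normalized counts, which covers counting error only.

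Notch signalling runs between touching cells. A Jagged or Delta-like ligand on one cell binds a Notch receptor on its neighbour, the receptor is cut by ADAM proteases and then by gamma-secretase, and the freed intracellular part enters the nucleus and binds RBPJ with Mastermind-like proteins to switch on targets such as the Hes and Hey repressors. In lung, Notch4 and Dll4 are best known from endothelium and Notch3 from pericytes and smooth muscle, while Notch2, Jag1 and Hes1 are found in many cell types. Dner carries EGF-like repeats as the ligands do but lacks their DSL domain, and is best known from neurons. The sequences below are the 250 bases before the RefSeq start site of Dner, Dll4 and Notch4, the genes of the list whose fitted fall in bleo was largest among receptors, ligands and ligand-like genes. They are written 5′ to 3′ on the strand of the gene, from RefSeq on GRCm38.p6, with each GC box (GGGCGG on either strand), a binding motif of Sp1-type factors, in capitals.

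Dner, chr1:84696222-84696471, minus strand: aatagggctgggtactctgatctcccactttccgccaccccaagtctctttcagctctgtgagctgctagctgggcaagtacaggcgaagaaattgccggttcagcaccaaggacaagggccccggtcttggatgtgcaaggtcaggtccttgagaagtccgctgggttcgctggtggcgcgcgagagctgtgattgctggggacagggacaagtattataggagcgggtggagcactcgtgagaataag
Dll4, chr2:119325534-119325783, plus strand: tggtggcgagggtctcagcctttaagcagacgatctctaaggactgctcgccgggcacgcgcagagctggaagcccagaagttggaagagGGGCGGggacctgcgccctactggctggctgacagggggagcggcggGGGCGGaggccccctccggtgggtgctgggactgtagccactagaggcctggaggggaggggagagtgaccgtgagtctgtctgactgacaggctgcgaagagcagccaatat
Notch4, chr17:34564045-34564294, plus strand: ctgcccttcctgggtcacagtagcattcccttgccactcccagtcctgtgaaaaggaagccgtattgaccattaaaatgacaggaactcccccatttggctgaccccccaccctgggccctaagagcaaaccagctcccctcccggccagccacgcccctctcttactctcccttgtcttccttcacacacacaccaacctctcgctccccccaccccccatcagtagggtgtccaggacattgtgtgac

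The Dll4 window held 2 GC boxes, 160 and 113 bases before the start, and those of Dner and Notch4 held none. Over the 8 genes of the list with a RefSeq promoter entry, which left out Hes1 and Hey1, 5 held a GC box, against 32.7% of all 32851 promoters of the same length. The core motif of RBPJ, TGGGAA on either strand, was in 0 of the 8 windows and in 21.6% of all promoters. The E-box CACGTG, read by Hes and Hey repressors, was in 0 of the 8 and in 6.02% of all promoters. The Dner window held 11 CpG dinucleotides, that of Dll4 held 14 and that of Notch4 held 4, against a median of 6 over all promoters. A match or its absence says only which letters these windows hold.

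In WT vehicle the levels per kilobase of exon spanned from Hes1 at the top to Jag2 at the bottom. Hes1 had 401 ± 69.7 normalized counts per kilobase (SD, n = 3 here and below), Dner 101 ± 5.36, and Notch2 80.4 ± 3.47, and these did not overlap with one another. Notch1 (33.0 ± 5.66), Hey1 (31.9 ± 9.5), Jag1 (22.4 ± 3.88) and Dll4 (19.1 ± 2.62) followed, each overlapping with its neighbour in the order. Notch4 had 15 ± 1.69, Notch3 9.53 ± 3.29 and Jag2 3.02 ± 1.97 normalized counts per kilobase. Dner was thus second of the 10 genes in WT vehicle. In the vehicle libraries labelled Pear1-/- it was also second, at 91.6 ± 8.34, but overlapped with Notch2. It was the fifth in WT bleo, at 13.3 ± 0.06, and last in the libraries labelled Pear1-/- bleo, at 1.58 ± 1.38, below Dll4 at 3.58 ± 0.91 with no overlap.

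**Figure D1:**
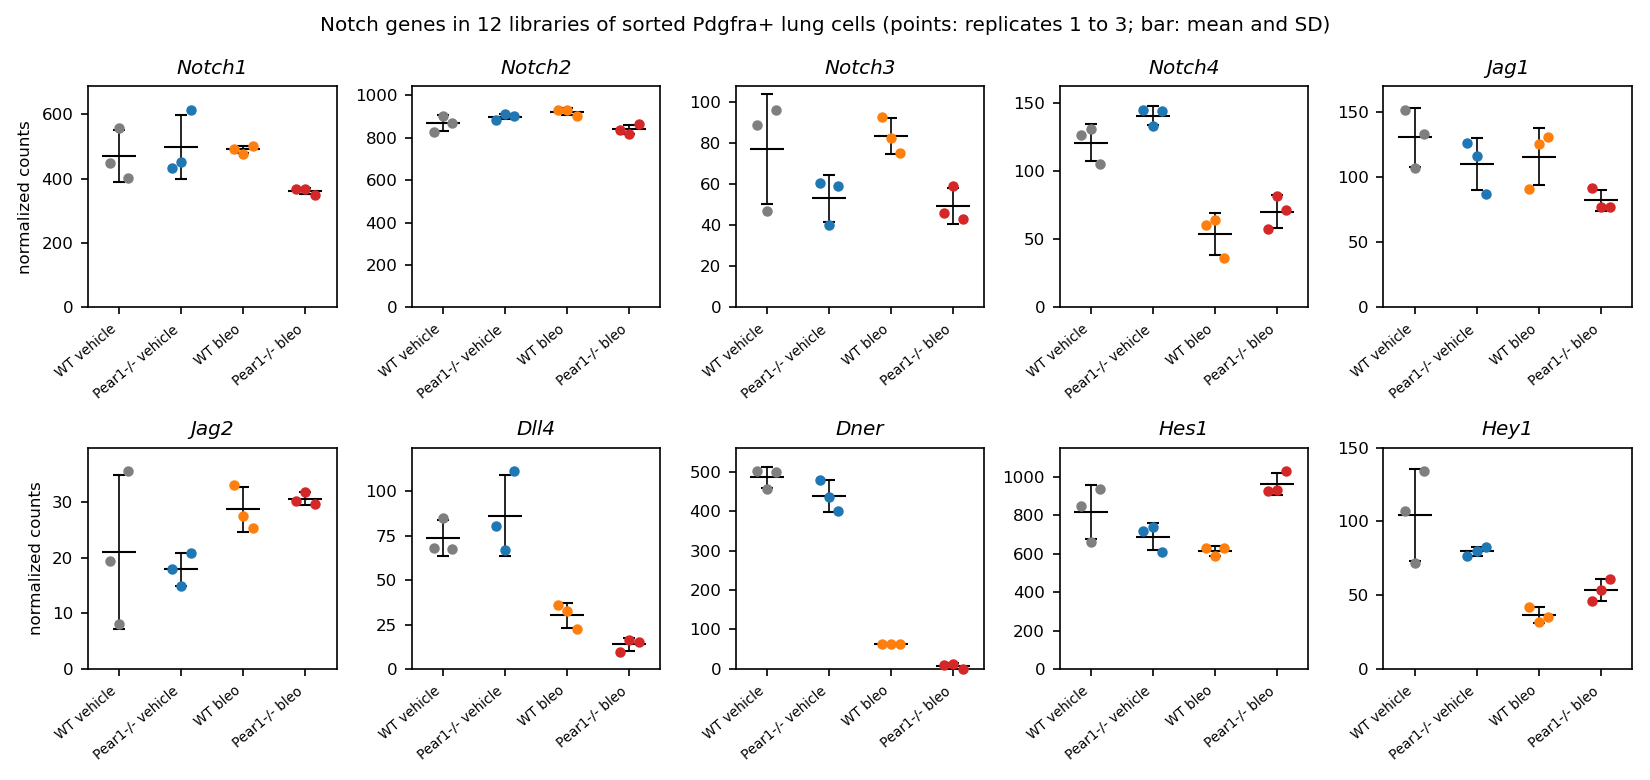
Normalized counts (vertical axis, linear, from 0) of each of the 10 genes in the 12 libraries, with replicates 1 to 3 as points from left to right in each group and a bar for the mean with its SD. The 3 WT bleo points of Dner sit between 63.2 and 63.8, and the Dll4 and Notch4 points of both bleo groups lie under all their vehicle points.

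Bleo against vehicle in the libraries labelled WT asks how these genes differ in sorted cells after injury. A gene is called when edgeR's quasi-likelihood test gave an adjusted p under 0.05 over all 17418 genes. Among the 9 genes tested, 4 were lower in WT bleo (Notch4, Dll4, Hes1 and Hey1), 0 were higher and 5 did not pass. Over all tested genes 36.5% were called lower and 31.4% higher, so a call as such was common. The median log2 fold change of the 9 genes was -0.16, against -0.07 over all tested genes. Within the libraries labelled Pear1-/-, 5 of the 9 were lower in bleo (Notch1, Notch4, Jag1, Dll4 and Hey1), 1 was higher (Hes1) and 3 did not pass, where 33.1% of all genes were called lower and 29.1% higher. The median of the 9 was -0.42 there, against -0.05 over all tested genes. In that comparison DESeq2 and limma each called 5 of the 9, and Jag1 did not pass in either. Leaving out WT vehicle replicate 2, the number called in WT was also 4.

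Among the receptors, Notch4 was lower in bleo in both genotypes. Notch4 (ENSMUSG00000015468, chr17:34564268-34588503 on GRCm38) had 126, 131 and 105 normalized counts in WT vehicle and 60.6, 64.3 and 36.5 in WT bleo. The groups did not overlap, and the log2 fold change was -1.15 (SE 0.18, adjusted p = 1.99e-05), or -1.09 without WT vehicle replicate 2. In the libraries labelled Pear1-/- it had 145, 133 and 144 in vehicle and 57.7, 81.7 and 71.5 in bleo. This was a log2 fold change of -0.99 (SE 0.17, adjusted p = 5.74e-05), and again all vehicle libraries lay above all bleo libraries. Genotype made no detectable difference to that fall, since the interaction was 0.16 on the log2 scale (SE 0.25, adjusted p = 0.654).

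Notch1, the receptor with the widest known use across tissues, differed in the libraries labelled Pear1-/- and not detectably in WT. Notch1 (ENSMUSG00000026923, chr2:26457903-26516663) had 449.9, 559 and 402 normalized counts in WT vehicle and 493, 478 and 502 in WT bleo, which overlapped (log2 0.07, SE 0.12, adjusted p = 0.618). The libraries labelled Pear1-/- had 433, 452 and 614 in vehicle and 368, 368 and 349.8 in bleo, with no overlap (log2 -0.46, SE 0.12, adjusted p = 0.00388). The lowest of all 4 groups was thus Pear1-/- bleo by label. It was also lower than WT bleo, by log2 -0.45 (SE 0.12, adjusted p = 0.00599). The interaction was -0.53 (SE 0.17, adjusted p = 0.024), and without WT vehicle replicate 2 it was -0.67 (adjusted p = 0.000198). It did not pass in limma (-0.46, adjusted p = 0.0566), nor without WT vehicle replicate 1 (-0.50) or 3 (-0.43), WT bleo replicate 3 (-0.51), Pear1-/- vehicle replicate 3 (-0.36) or Pear1-/- bleo replicate 3 (-0.50).

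Notch2 held the largest share of receptor level, and none of its group comparisons passed over the 12 libraries. Notch2 (ENSMUSG00000027878, chr3:98013527-98150361) lay between 828 and 903 normalized counts in vehicle and 902 and 931 in bleo for WT, and between 884 and 909 in vehicle and 818 and 863 in bleo for Pear1-/-. The log2 differences of its 4 group comparisons were from -0.15 to 0.10. The lowest was Pear1-/- bleo against WT bleo (adjusted p = 0.0615), which passed when only the bleo libraries were fitted (-0.14, adjusted p = 0.00388). The interaction was -0.19 (SE 0.09, adjusted p = 0.0978) with all libraries and -0.22 (adjusted p = 0.0256) without WT vehicle replicate 2.

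Notch3, the receptor of mural cells, had few counts. Notch3 (ENSMUSG00000038146, chr17:32120820-32166852) had 92.8, 82.6 and 74.9 normalized counts in WT bleo, against 46.2, 59.3 and 42.9 in the libraries labelled Pear1-/- bleo. The groups did not overlap, and the log2 difference was -0.76 (SE 0.23, adjusted p = 0.0118). Without WT bleo replicate 1 that was -0.68 (adjusted p = 0.0557) and without Pear1-/- bleo replicate 3 it was -0.67 (adjusted p = 0.0562), so the call rested on these libraries. In WT vehicle Notch3 had 88.5, 46.7 and 96.2, with replicate 2 far under the other 2, and in Pear1-/- vehicle 60.6, 39.9 and 58.9. Bleo against vehicle did not pass in either genotype, with log2 values of 0.14 (SE 0.23, adjusted p = 0.604) in WT and -0.09 (SE 0.25, adjusted p = 0.766) in Pear1-/-. The pericyte marker list, of which 9 of 9 genes were measured with none at 0, summed to between 118 and 122 CPM in WT bleo and 130.1 and 133 in Pear1-/- bleo. Of its genes Kcnj8 was called higher in Pear1-/- bleo (log2 0.89), and Lamc3 and Abcc9 lower (-0.89 and -0.34). The smooth muscle list, 6 of 6 genes with none at 0, summed to between 231 and 239 CPM in WT bleo and 628 and 641 in Pear1-/- bleo. There Des, Cnn1, Actg2 and Tagln were called higher (log2 1.84, 1.39, 1.32 and 0.93), Myh11, the smooth muscle myosin, was called lower (-0.40, adjusted p = 0.0134), and Lmod1 was not called. The part of either in the Notch3 difference was not tested.

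Taken per kilobase of exon, Notch2 made up 58.3% ± 1.74 of the summed level of the 4 receptors in vehicle and 62.4% ± 0.68 in bleo for WT, and 58.6% ± 3.25 in vehicle and 65.9% ± 1.96 in bleo for Pear1-/-. Notch4 made up 10.8% ± 0.96 and 12.3% ± 0.68 in the 2 vehicle groups and 4.85% ± 1.26 and 7.38% ± 1.17 in WT bleo and Pear1-/- bleo. The make-up of the ligand level shifted further. Dll4 made up 43.3% ± 8.63 of the summed level of Jag1, Jag2 and Dll4 in WT vehicle and 50.7% ± 9.58 in Pear1-/- vehicle, but 24.8% ± 6.60 in WT bleo and 16.3% ± 4.40 in Pear1-/- bleo. Jag1 made up most of the rest, at 62.2% ± 8.96 in WT bleo and 63.8% ± 5.04 in Pear1-/- bleo. These shares are descriptions, and a share falls when another gene of the sum rises.

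**Figure D2:**
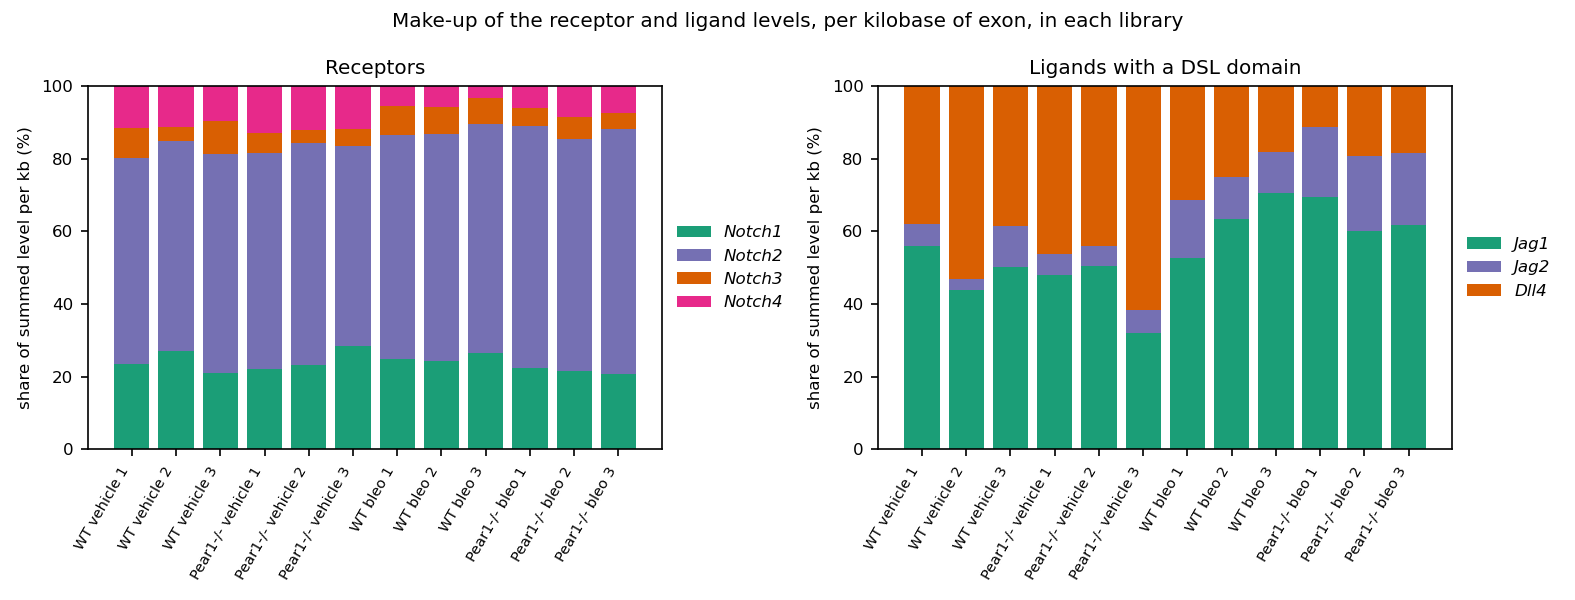
Share of the summed level per kilobase of exon (vertical axis, percent, from 0 to 100) held by each receptor, left, and each ligand, right, in the 12 libraries along the horizontal axis. Notch2 is the largest receptor block in every library, and the Dll4 block is smaller in all 6 bleo libraries than in any vehicle library.

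Among the ligands, Dll4 was lower in bleo in both genotypes, and by more in the libraries labelled Pear1-/-. Dll4 (ENSMUSG00000027314, chr2:119325784-119335962), the Delta-like ligand of sprouting vessels, had 67.9, 85.2 and 67.5 normalized counts in WT vehicle and 35.8, 32.6 and 22.3 in WT bleo (log2 -1.27, SE 0.24, adjusted p = 0.000127). Without WT vehicle replicate 2 the log2 fold change was -1.14 (adjusted p = 4.8e-05). In the libraries labelled Pear1-/- it had 80.5, 66.8 and 111 in vehicle and 9.77, 16.3 and 15.3 in bleo (log2 -2.62, SE 0.26, adjusted p = 6.99e-08). All bleo libraries lay under all vehicle libraries in both genotypes, and all Pear1-/- bleo libraries lay under all WT bleo libraries (log2 -1.14, SE 0.30, adjusted p = 0.00382). The interaction was -1.36 (SE 0.37, adjusted p = 0.00686), and the values in Pear1-/- bleo rest on 11, 19 and 16 counts.

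The endothelial markers were also lower in bleo than in vehicle. The endothelial list, 16 of 16 genes measured and none at 0, summed to between 939.7 and 963 CPM in vehicle and 511 and 537 in bleo for WT, and between 917 and 967 in vehicle and 556 and 588 in bleo for Pear1-/-, so the sum was higher in Pear1-/- bleo than in WT bleo, while Dll4 was lower in Pear1-/- bleo. Its genes went both ways between these groups, with Tek, Cldn5, Esam, Ptprb and Gpihbp1 called higher in Pear1-/- bleo (log2 from 0.21 to 1.01), Cdh5, Vwf and Aplnr called lower (-0.34, -0.44 and -0.54), and the other 8, Pecam1 and Kdr among them, not called. In bleo against vehicle 14 of its 16 genes were called lower and 1 higher in WT, and 11 lower and 2 higher in Pear1-/-. Over all genes 36.5% were called lower and 31.4% higher in WT, and 33.1% and 29.1% in Pear1-/-. The same shares apply to the counts of other marker lists in bleo against vehicle below. Per 1000 counts of these markers, Notch4 was between 13.8 and 16.1 in WT vehicle and between 7.72 and 14.1 in WT bleo, which overlapped, but between 15.6 and 17.1 in Pear1-/- vehicle and 11.7 and 15.5 in Pear1-/- bleo, which did not. Dll4 per 1000 endothelial marker counts was between 8.68 and 9.81 in WT vehicle and between 4.72 and 7.49 in WT bleo. In the libraries labelled Pear1-/- it was between 7.83 and 12.1 in vehicle and between 1.98 and 3.09 in bleo. Taken this way, bleo and vehicle did not overlap for Dll4 in either genotype and for Notch4 in Pear1-/- only, and the bleo groups of Dll4 did not overlap with each other. The part of endothelial cells in these differences was not tested. In bulk samples fewer cells of a type and less RNA per cell cannot be told apart.

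The calls of Jag1 depended on single libraries and on the method, and Jag2 had none with all libraries. Jag1 (ENSMUSG00000027276, chr2:137081456-137116644), a ligand of both epithelium and mesenchyme, had 126, 116 and 87.3 normalized counts in Pear1-/- vehicle and 91.5, 77.4 and 77.2 in Pear1-/- bleo (log2 -0.42, SE 0.18, adjusted p = 0.0454). The WT bleo libraries had 90.9, 125 and 131 (log2 -0.50 for Pear1-/- bleo against WT bleo, SE 0.18, adjusted p = 0.0249). In both comparisons the groups overlapped. With all libraries the first call was lost in DESeq2 (adjusted p = 0.0564) and in limma (adjusted p = 0.0723). It was also lost in edgeR with total counts (adjusted p = 0.114) or a replicate block (adjusted p = 0.0567). The second call was lost in limma (adjusted p = 0.0519). Leaving out 1 library at a time took the first call away for 4 of 6 libraries (Pear1-/- vehicle replicates 1 and 2 and Pear1-/- bleo replicates 2 and 3, with log2 values from -0.38 to -0.31), and the second for 4 of 6 (replicates 2 and 3 of each bleo group, from -0.46 to -0.40). Jag2 (ENSMUSG00000002799, chr12:112907819-112929776) had between 8.12 and 35.5 normalized counts in vehicle and 25.3 and 33.1 in bleo for WT, and between 14.8 and 20.7 in vehicle and 29.6 and 31.8 in bleo for Pear1-/-. None of its tests passed with all libraries. Bleo against vehicle was 0.48 (SE 0.36, adjusted p = 0.247) in WT and 0.78 (SE 0.35, adjusted p = 0.0627) in Pear1-/-, and without WT vehicle replicate 3 the former was 1.11 (adjusted p = 0.0116). The latter passed with no filter on low counts (0.83, adjusted p = 0.0281) and with only the libraries of those groups (0.77, adjusted p = 0.00804).

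Dner (ENSMUSG00000036766, chr1:84369839-84696221) was high in vehicle and low in bleo. It had 501, 456 and 499 normalized counts in WT vehicle and 63.4, 63.2 and 63.8 in WT bleo. This was 7.57-fold lower, a log2 fold change of -2.92 (SE 0.19). In Pear1-/- vehicle it had 479, 436 and 399, and in Pear1-/- bleo 10.7, 12 and 0. The last group rests on 12, 14 and 0 counts, and the count of 0 allows up to 2.86 normalized counts. The log2 fold change was -5.79 (SE 0.27) within the libraries labelled Pear1-/- and -3.02 (SE 0.35) for Pear1-/- bleo against WT bleo. These values are what the gene was chosen by, and none was tested. Between the vehicle groups, which the choice did not use, the log2 difference was -0.15 (SE 0.16, adjusted p = 0.524), and the 2 groups overlapped.

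The genes with the pattern most like that of Dner over the 12 libraries were Nrip3 and Sfta2 (Pearson r = 0.985 for each), Lamp3 (r = 0.984, r on log2 CPM), Col4a4 and Arhgap20 (r = 0.979 for each). Sfta2 and Lamp3 are known from alveolar type 2 epithelial cells, and Col4a4 encodes a chain of basement membrane collagen. These 12 libraries fall in 4 groups, so an r of this kind mostly reflects the group means. Lamp3 had between 243 and 294 normalized counts in WT vehicle, 106 and 119 in WT bleo and 25.7 and 40.4 in Pear1-/- bleo. The alveolar epithelial marker list, with 10 of 10 genes measured, Lamp3 among them, and none at 0, was likewise lowest in Pear1-/- bleo and next lowest in WT bleo. Its summed level was between 2805 and 2992 CPM in vehicle and 1275 and 1304 in bleo for WT, and between 2917 and 3271 in vehicle and 422 and 449 in bleo for Pear1-/-. It fell less than Dner did by these sums, and 8 of its 10 genes were called lower in WT bleo and 9 of 10 in Pear1-/- bleo against vehicle. Its gene Cdh1, the adhesion protein of epithelium, went the other way, and was higher in bleo in WT (log2 0.90, SE 0.12, adjusted p = 2.45e-06) and in Pear1-/- (log2 1.26, SE 0.12, adjusted p = 2.26e-08). Epcam, a defining marker of epithelium, was at 149.6 ± 25 normalized counts in vehicle and 192 ± 8.15 in bleo for WT, and at 215 ± 16.6 in vehicle and 157 ± 7.42 in bleo for Pear1-/-. The list of neuroendocrine and neural genes, 7 of 8 in the table, summed to between 15.9 and 24.6 CPM in vehicle and 8.87 and 11.1 in bleo for WT, and between 11.7 and 19.7 in vehicle and 5.74 and 6.9 in bleo for Pear1-/-, so the sum was low throughout and lowest in Pear1-/- bleo. The airway epithelial list, 8 of 8 genes with none at 0, was lowest there too. It summed to between 2890.5 and 4032 CPM in vehicle and 763 and 782 in bleo for WT, and between 3734 and 4248 in vehicle and 454 and 464 in bleo for Pear1-/-, with 7 of 8 genes called lower and Bpifa1 called higher in bleo in each genotype. In the neuroendocrine and neural list, Uchl1 went against the sum. It was called higher in bleo in WT (log2 1.33, adjusted p = 0.00096) and in Pear1-/- (log2 1.01, adjusted p = 0.00549). Its means in the bleo groups were 36.6 and 36.7 normalized counts. Chga was at 0 in Pear1-/- vehicle and in WT bleo, and Sox10 was at 0 in Pear1-/- bleo. The part of any of these cell types in the Dner values was not tested.

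**Figure D3:**
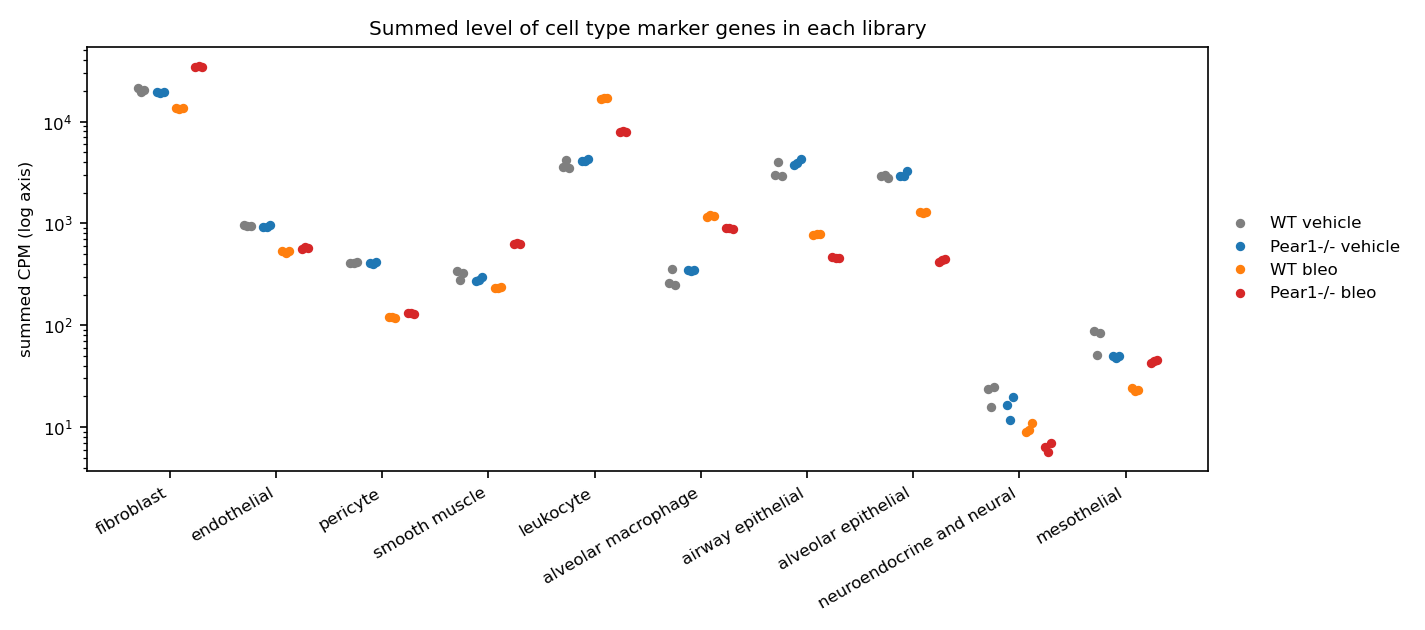
Summed CPM of 10 lists of cell type marker genes (vertical axis, log scale) in each library, with the 4 groups side by side for each list along the horizontal axis. The alveolar and airway epithelial sums fall from vehicle to WT bleo to Pear1-/- bleo, the endothelial and pericyte sums are lower in both bleo groups, and the leukocyte sums are highest in WT bleo.

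The target genes Hes1 and Hey1 were both lower in WT bleo, and differed in direction within the libraries labelled Pear1-/-. Hes1 (ENSMUSG00000022528, chr16:30064384-30067796), a repressor that many cell types switch on when a Notch receptor is cut, had 849, 661 and 939 normalized counts in WT vehicle and 629, 586 and 629 in WT bleo. The log2 fold change was -0.40 (SE 0.11, adjusted p = 0.0031), or -0.53 (adjusted p = 5.19e-08) without WT vehicle replicate 2. In the libraries labelled Pear1-/- it went the other way, with 719, 741 and 609 in vehicle and 924, 932 and 1029 in bleo (log2 0.48, SE 0.10, adjusted p = 0.000645). All 3 Pear1-/- bleo libraries lay above all 3 WT bleo libraries (log2 0.63, SE 0.11, adjusted p = 7.89e-05). The interaction was 0.88 (SE 0.15, adjusted p = 0.000167), and 1.01 without WT vehicle replicate 2.

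Hey1 (ENSMUSG00000040289, chr3:8663359-8667256), a repressor of the same family that is prominent in vessels, was lower in bleo in both genotypes. It had 107, 72.0 and 134 normalized counts in WT vehicle and 42.2, 31.6 and 35.4 in WT bleo (log2 -1.49, SE 0.21, adjusted p = 5.89e-06), and without WT vehicle replicate 2 the log2 fold change was -1.71. In the libraries labelled Pear1-/- it had 76.7, 79.8 and 82.9 in vehicle and 46.2, 53.3 and 61.0 in bleo (log2 -0.57, SE 0.20, adjusted p = 0.0197), a call lost without Pear1-/- vehicle replicate 3 (-0.55, adjusted p = 0.0542) or Pear1-/- bleo replicate 1 (-0.48, adjusted p = 0.084). The fall was smaller there by an interaction of 0.92 (SE 0.30, adjusted p = 0.0208), which did not pass without WT vehicle replicate 3 (0.69, adjusted p = 0.0664), WT bleo replicate 2 (0.83, adjusted p = 0.0594) or Pear1-/- bleo replicate 3 (0.82, adjusted p = 0.0605). The bleo groups did not overlap, but Pear1-/- bleo against WT bleo missed the threshold (log2 0.53, SE 0.23, adjusted p = 0.0606) and passed with no filter on low counts (0.55, adjusted p = 0.042) or with only the bleo libraries (0.53, adjusted p = 0.00972).

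Across genotypes in bleo, 4 of the 9 genes were lower in the libraries labelled Pear1-/- (Notch1, Notch3, Jag1 and Dll4), 1 was higher (Hes1) and 4 did not pass. With only the 6 bleo libraries 5 were lower and 3 higher, since Notch2 (-0.14, adjusted p = 0.00388), Notch4 (0.38, adjusted p = 0.0404) and Hey1 (0.53, adjusted p = 0.00972) also passed, and without Pear1-/- bleo replicate 3 the count was 2 lower and 1 higher. With all 12 libraries limma called 4 of the 9, and Jag1 did not pass there. Over all tested genes 24% were called lower and 22.1% higher in edgeR with all 12 libraries. No such share was taken for the fits with fewer libraries, so their counts have no measure beside them. For the interaction 2 of the 9 were lower (Notch1 and Dll4) and 2 higher (Hes1 and Hey1), where 19.3% of all genes were called lower and 17.8% higher. Without WT vehicle replicate 3, or without Pear1-/- bleo replicate 3, the 9 genes gave 1 lower and 1 higher, and the share of all genes was not taken. The comparisons share libraries, WT bleo and Pear1-/- bleo among them, and are not independent of each other. A fold change above 2 as well as the call was met by Notch4, Dll4 and Hey1 for WT bleo against WT vehicle. Only Dll4 of the 9 met it in the other comparisons that use a bleo library.

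**Figure D4:**
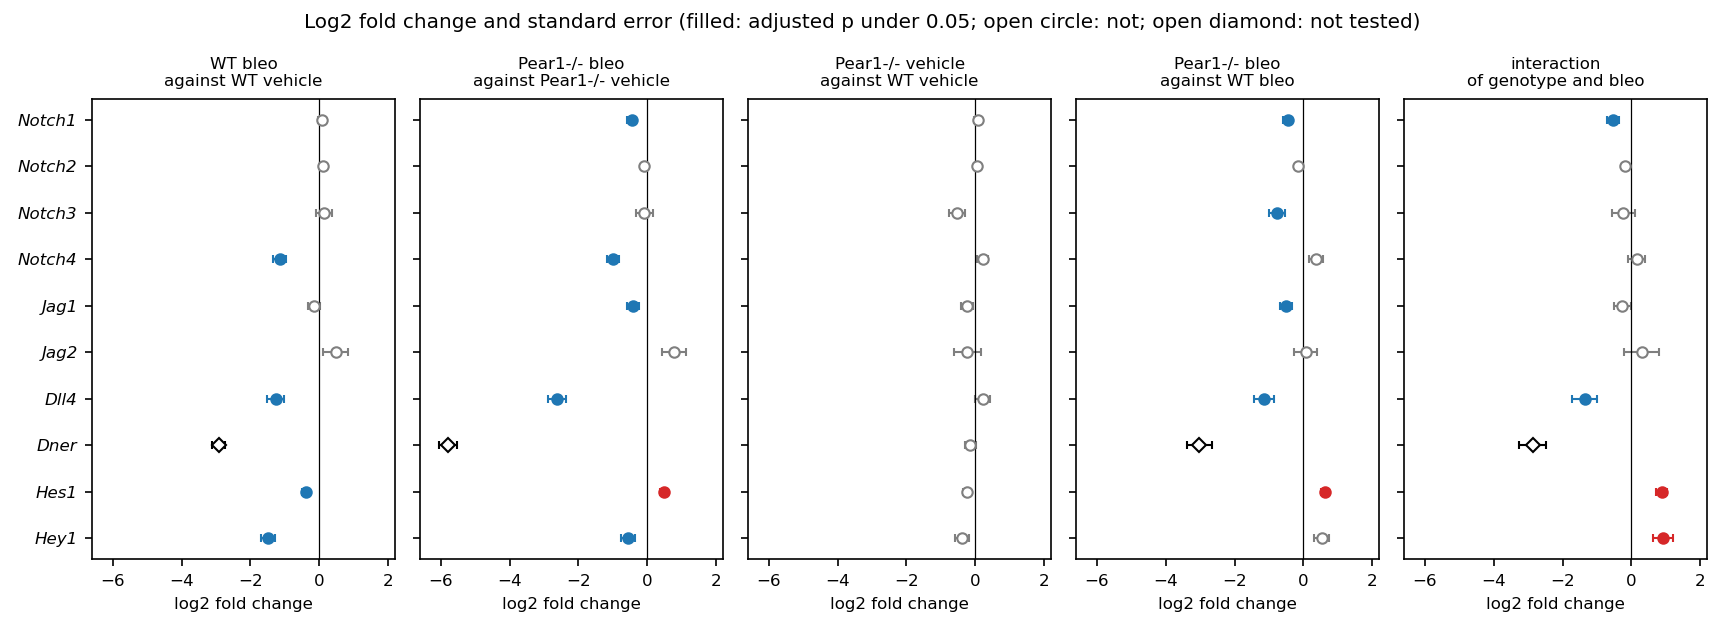
Log2 fold change (horizontal axis) with its standard error for each gene in the 4 group comparisons and for the interaction, from left to right. Filled points passed an adjusted p under 0.05 (blue lower, red higher), open circles did not, and the open diamonds of Dner were not tested. Dll4 lies at -1.27 in WT and -2.62 in Pear1-/-, and Hes1 at -0.40 and 0.48.

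In vehicle, 0 of the 10 genes were called between genotypes with all libraries in edgeR's test, where 5.29% of all genes were called lower and 1.95% higher. At an unadjusted p under 0.05 there were 2, and DESeq2 and limma each called 0. This turned on WT vehicle replicate 2. Without it 4 of the 10 were lower in the libraries labelled Pear1-/-, while the share of all genes called rose to 23.5% lower and 22.8% higher. These were Notch3 (log2 -0.81, adjusted p = 0.000489), Jag1 (-0.37, adjusted p = 0.0464), Hes1 (-0.38, adjusted p = 6.29e-05) and Hey1 (-0.61, adjusted p = 0.00178). For Hey1, replicate 2 had 72.0 normalized counts, under the 3 Pear1-/- vehicle libraries, while replicates 1 and 3 had 107 and 134, above them. For Notch3 it had 46.7, within the Pear1-/- vehicle range of 39.9 to 60.6. Replicate 2 lay inside the Pear1-/- vehicle range for 7 of the 10 genes and inside the range of WT vehicle replicates 1 and 3 for 0. The first range spans 3 libraries and the second 2, which favours the first.

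Of 54 further genes of the pathway, 46 passed the filter. The 8 that did not were the ligands Dll3, Dlk1 and Dlk2 and the targets Hes2, Hes3, Hes5, Hes7 and Nrarp. In WT bleo 25 of the 46 were higher and 12 lower than in WT vehicle, against 31.4% and 36.5% of all genes, and the same counts were found without WT vehicle replicate 2. In the libraries labelled Pear1-/- 16 were higher and 16 lower in bleo, against 29.1% and 33.1% of all genes. Pear1-/- bleo against WT bleo gave 6 higher and 20 lower, against 22.1% and 24% of all genes, with a median log2 of -0.21 against -0.01 over all genes. The interaction gave 2 higher and 14 lower, against 17.8% and 19.3% of all genes. Without WT vehicle replicate 2 it gave 3 and 20, but the share of all genes was not taken for that setting. Between the vehicle groups 2 were higher and 3 lower, against 1.95% and 5.29% of all genes. Without WT vehicle replicate 2 they were 10 and 9, near the 22.8% and 23.5% of all genes called then.

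By role, the genes of receptor cleavage counted 7 of 9 higher and 1 lower in WT bleo, and 6 of 9 higher and 2 lower in Pear1-/- bleo, where 31.4% and 29.1% of all genes were called higher. Adam10, which makes the first cut, went from 644 ± 37.0 to 1426 ± 76.4 normalized counts in WT (log2 1.16, SE 0.09, adjusted p = 1.97e-09) and rose by a log2 of 1.01 (SE 0.09, adjusted p = 1.94e-08) in Pear1-/-. Furin, which cuts the receptor as it matures, went from 682 ± 104 to 3068 ± 147 in WT (log2 2.18, SE 0.10, adjusted p = 3.13e-13), and its log2 change in Pear1-/- was 2.16. Aph1c and Aph1b, paralogous subunits of gamma-secretase, differed by 1.25 (higher) and -1.06 (lower) on the log2 scale in WT bleo, and reads of such close copies could be split between them. Aph1a, a further subunit, was higher by 1.06 in WT bleo and 1.01 in Pear1-/- bleo. The interactions of Adam10 and Furin were -0.15 (SE 0.13, adjusted p = 0.38) and -0.02 (SE 0.13, adjusted p = 0.924). By the same test 3 of the 9 cleavage genes were called lower and 0 higher, against 19.3% and 17.8% of all genes. Aph1c was among these 3, with an interaction of -0.67 (SE 0.16, adjusted p = 0.00352).

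Of the 13 genes of the nuclear complex, 9 were higher and 2 lower in WT bleo, where 31.4% of all genes were called higher and 36.5% lower. In Pear1-/- bleo 4 were higher and 5 lower, near the 29.1% and 33.1% of all genes. Rbpj, the DNA-binding partner of all 4 receptors, went from 718 ± 50.7 to 1286 ± 90.2 normalized counts in WT, but from 652 ± 34.8 to 519 ± 20.2 in the libraries labelled Pear1-/-. Its log2 difference between Pear1-/- bleo and WT bleo was -1.32 (SE 0.08, adjusted p = 7.59e-11), and its interaction was -1.18 (SE 0.11, adjusted p = 1.11e-07). Kat2b, a histone acetyltransferase that acts with the complex, was lower in Pear1-/- bleo than in its vehicle (log2 -1.02, SE 0.12, adjusted p = 6.52e-07) and higher in WT bleo than in WT vehicle (log2 0.48, SE 0.12, adjusted p = 0.00143). Against WT bleo, Rbpj was thus lower and Hes1 higher in Pear1-/- bleo.

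Of the other genes listed as targets, 3 of 8 passed the filter. Heyl, at the highest level of these in vehicle, went from 1749 ± 289 to 513 ± 11.7 normalized counts in WT (log2 -1.76, SE 0.09, adjusted p = 5.64e-12) and from 2033 ± 117 to 521 ± 26.1 in Pear1-/- (log2 -1.96, SE 0.09, adjusted p = 1.79e-12). Hey2 went from 28.9 ± 9.46 to 10.1 ± 2 in WT and from 20.2 ± 4.16 to 1.48 ± 0.46 in Pear1-/-, the last of which is under the limit that a count of 0 allows. Its log2 fold change was -1.48 in WT (SE 0.37, adjusted p = 0.00175) and -2.68 for Pear1-/- bleo against WT bleo (SE 0.56, adjusted p = 0.000688), a fitted value that rests on few counts. Hes6 was higher by 1.10 in Pear1-/- bleo (SE 0.11, adjusted p = 1.12e-07) and by 0.77 in WT bleo (SE 0.12, adjusted p = 1.5e-05). Heyl and Hey2, like Hey1, were thus lower in bleo. Whether Notch switches on Hes6 in these cells was not tested.

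Among the genes that act on ligands and receptors at the membrane, Neurl1a and Neurl1b, ubiquitin ligases of the Neuralized family, were lower in Pear1-/- bleo than in WT bleo. Neurl1a was at 60.3 ± 10.7 normalized counts in WT bleo, against 15.8 ± 4.21 in Pear1-/- bleo (log2 -1.94, SE 0.32, adjusted p = 5.83e-05), and 9.42 ± 2.19 in WT vehicle. Neurl1b was at 44.1 ± 0.77 in WT bleo, against 17.3 ± 2.34 in Pear1-/- bleo (log2 -1.35, SE 0.27, adjusted p = 0.000416). In vehicle it was also lower in the libraries labelled Pear1-/-, at log2 -1.02 (adjusted p = 0.0385) with all libraries and -1.27 (adjusted p = 5.92e-05) without WT vehicle replicate 2. Dtx1, a Deltex regulator of the receptor, was lower in Pear1-/- bleo than in its vehicle (log2 -1.08, SE 0.13, adjusted p = 1.27e-06) and lower in WT bleo than in WT vehicle (log2 -0.65, SE 0.14, adjusted p = 0.000491), and its interaction did not pass (-0.43, SE 0.20, adjusted p = 0.0918).

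The patterns most like those of other members were as follows. For Dll4 the closest gene was Pcsk6 (r = 0.985 over 12 libraries), for Notch4 Gm10125 (r = 0.979), for Hes1 Gng11 (r = 0.972) and for Hey1 Anks1b (r = 0.985). Among the 10 genes themselves, Dner and Dll4 were closest (r = 0.914), Notch4 and Dll4 had r = 0.801, and Hes1 and Notch1 ran opposite (r = -0.886). These are descriptions over libraries that share groups and depth.

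The sorted cells themselves differed between groups. The fibroblast list, with 10 of 10 genes measured and none at 0, summed to between 19494 and 21155 CPM in vehicle and 13377 and 13514 in bleo for WT, and between 19152 and 19493 in vehicle and 34071 and 34885 in bleo for Pear1-/-. Its genes did not move as one, and the higher sum in Pear1-/- bleo was mostly counts of Col1a1, Col1a2 and Col3a1. In Pear1-/- bleo against vehicle Col1a1, Col1a2, Col3a1 and Mfap4 were called higher (log2 2.18, 1.53, 0.98 and 0.35), while Inmt, Dcn, Tcf21, Lum and Pdgfra, the gene of the sort marker, were called lower (-2.95, -2.41, -1.38, -1.33 and -0.80). In WT bleo 8 of the 10 were called lower, Pdgfra among them (-1.74), and Col1a1 and Col1a2 higher (0.40 and 0.18). The leukocyte list, 16 of 16 genes and none at 0, summed to between 3521 and 4171 CPM in vehicle and 16828 and 17068 in bleo for WT, and between 4082 and 4295 in vehicle and 7833 and 8011 in bleo for Pear1-/-. Ptprc, the leukocyte marker that a sort for fibroblasts should leave out, had at least 3010.0 normalized counts in every library. The leukocyte genes did not move as one either, and Lyz2 of myeloid cells held the largest part of the sum. In Pear1-/- bleo against vehicle 10 of the 16 were called higher, Ptprc was not called (log2 -0.18, adjusted p = 0.0677), and Cd3e of T cells and Nkg7 of cytotoxic lymphocytes were called lower (-1.58 and -3.14). In WT bleo 13 were called higher, with Ptprc at 1.22, and Cd3e and Nkg7 lower (-0.75 and -1.54). The part of either list in the results on Notch1, Hes1 and Rbpj was not tested. The library kit does not mark strand, and Notch1, Notch2, Notch3, Notch4, Jag2, Dll4 and Dner overlap other annotated genes, whose reads cannot be told apart from theirs. Jag1, Hes1 and Hey1 overlap none.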

How the data were processed

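Cells sorted for Cd140a from mouse lung gave 12 libraries, made with the SMART-Seq v4 and TruePrep V2 kits. The authors aligned the reads to GRCm38 with HISAT2 and deposited raw counts for 40760 genes, and the program that counted reads is not given in the sources used here. The deposited normalized values are a signal on a linear scale, which equals the counts divided by a size factor per library (between 0.825 and 1.16).

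The members and lists were chosen with earlier results of these data known. Counts were tested with edgeR 4.0.16 in R 4.3.3 (TMM, default low-count filter, 1 mean per group over 12 libraries, robust quasi-likelihood F test, two-sided, Benjamini-Hochberg over 17418 genes), after a check on simulated data. DESeq2 1.42.0 and limma 3.58.1 on VST values, other scalings and filters, a replicate block and leaving out each library were alternatives. CPM was computed from raw counts, and gene lengths from GENCODE exons on GRCm38. Pathway genes were named at adjusted p under 0.05, fold above 2, mean CPM of at least 1 and no overlap, at most 4 per direction and comparison, by size. The 5 genes most like each member were ranked by Pearson r on log2 CPM with a prior count of 2. No value column was left without a sample. Replicate numbers did not pair the libraries.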

Additional observations from a re-analysis of the deposited data

Results flagged for a closer look

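The response to bleo differed between the libraries labelled Pear1-/- and those labelled WT for 4 of the 9 genes tested, by edgeR's test of the interaction itself over 12 libraries. The number was 3 in limma, and 2 without WT vehicle replicate 3 or without Pear1-/- bleo replicate 3. Notch1 had an interaction of -0.53 on the log2 scale, being lower in bleo in the libraries labelled Pear1-/- with no detectable difference in WT. Dll4 had -1.36, with a larger fall in the libraries labelled Pear1-/-. Hes1 had 0.88, with a fall in WT and a rise in the libraries labelled Pear1-/-. Hey1 had 0.92, with a smaller fall in the libraries labelled Pear1-/-. Of all genes tested, 19.3% were called lower and 17.8% higher by the same test. The calls of Notch1 and Hey1 were each lost when certain single libraries were left out, and those of Dll4 and Hes1 were not. No group had more than 3 libraries, so the values of single genes were not tested for outlying libraries. WT vehicle replicate 2, which stood apart from its group over all genes, is described with the results.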

How the results depend on the processing

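Of 689 tests of single genes under an alternative, 650 kept their side of the threshold, 27 lost the call, 12 gained it and 0 turned a call around. Under every alternative run, 30 of 46 results kept their side. Results without a call could change sign, as Notch1 did for WT bleo against WT vehicle (log2 0.07, and -0.03 at the lowest). For the number of genes called, WT bleo against WT vehicle stayed within 1.5 times of 4. Between the vehicle groups it was 4 without WT vehicle replicate 2, and from 0 to 4 over the 6 libraries left out in turn. For Pear1-/- bleo against WT bleo it was 8 (3 higher and 5 lower) with only the libraries of those groups, where fewer genes were tested, and leaving out 1 library gave from 3 (without Pear1-/- bleo replicate 3) to 5. For the interaction it was from 2 (without WT vehicle replicate 3, or without Pear1-/- bleo replicate 3) to 5 over the libraries left out in turn. Apart from the tests that change with the number of libraries or genes, the cause was not tested.

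Replicate numbers did not pair the libraries: over 18 pairs of equal number the correlation of deviations was between -0.16 and 0.1, and between -0.15 and 0.15 for other pairs. With a replicate block 5 genes were called in Pear1-/- bleo against Pear1-/- vehicle, since Jag1 had a log2 of -0.42 with an adjusted p of 0.0567, and no other call of the 10 genes changed. Hey1 in the same comparison was -0.52 (adjusted p = 0.0569) with total counts. The interaction of Notch1 was -0.46 (adjusted p = 0.0566) in limma, and it lay between -0.36 and -0.51 with the call lost without WT vehicle replicate 1 or 3, WT bleo replicate 3, Pear1-/- vehicle replicate 3 or Pear1-/- bleo replicate 3. The interaction of Hey1 lost its call without WT vehicle replicate 3 (0.69), WT bleo replicate 2 (0.83) or Pear1-/- bleo replicate 3 (0.82). For Dner limma on VST values gave -3.63, -1.46 and -1.31 where edgeR gave -5.79, -3.02 and -2.87, since that scale compresses low counts. Scaling by total counts moved the median of all genes to -0.17 for WT bleo against WT vehicle, -0.15 between the vehicle groups and 0.15 for the interaction, and the share of all calls that were higher from 27.0% to 6.4% between the vehicle groups and from 48.1% to 61.9% for the interaction. Genes with under 40 counts in a library, such as Jag2, Dll4 in bleo and Hey2, are limited by depth.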
